A study of Mus musculus with 6 samples.

Results

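The collagen genes of the mouse ileum are described here. They were chosen by name: every gene whose symbol consists of Col, a number, the letter a and a number, which took 44 of the 21950 gene symbols listed in both deposited columns. By the type of collagen they encode, 11 were fibrillar, 9 were of the basement membrane or its zone (types IV, VII, XV and XVIII) and 24 were of other types. The ileum, which ends the small intestine, came from C57BL/6 mice aged 24 weeks, 3 of them wild type and 3 TLR4ΔIEC, in which Toll-like receptor 4 (Tlr4), the sensor of bacterial lipopolysaccharide, is deleted in the epithelial cells of the intestine. The promoter that drives the deletion is not given in the sources used here. RNA depleted of ribosomal RNA was sequenced from the whole tissue, and the deposited values are 1 column of average coverage (reads per base) for each genotype, which its 3 mice share. Every value below is therefore that of a pool, with no spread between mice and no test, and each genotype was sequenced as a pool of its own, so genotype and sequencing pool cannot be told apart.

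Collagens are proteins of 3 chains wound around each other in a triple helix, which is possible because glycine, the smallest amino acid, recurs at every turn of the chain. Fibrillar collagens such as types I and III form the rope-like fibrils of the submucosa and the lamina propria, type IV collagen forms the sheet on which epithelium, vessel and muscle cells rest, and type VI collagen forms beaded filaments around cells. In the gut wall most collagen is made by fibroblasts and smooth muscle cells, and little by the epithelium.

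The wild type column summed to 699800 over 22724 entries and the TLR4ΔIEC column to 698473 over 22687. Both were put on 1 scale, in units that sum to 1000000 on average, so that 5 units equal 3.41 reads per base in wild type and 3.58 in TLR4ΔIEC. Log2 ratios are of TLR4ΔIEC over wild type, taken of units plus 1, which draws the ratios of low genes towards 0. The targeted gene, Tlr4, was covered 1.98 times in the wild type pool against 1.60 times in the TLR4ΔIEC pool (log2 ratio -0.27), and since other cells of the tissue keep the gene, this checks the labels only weakly. All 6 markers of the ileum were at 5 units or more in both pools, and Fabp6, the ileal bile acid binding protein, was at 15350 and 13628 units. Of the 6, 5 lay below 0, with a median log2 ratio of -0.37.

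The feature that makes these genes a family can be read in their coding sequences, taken from the transcripts of GENCODE vM21 (GRCm38, the assembly behind mm10), to which all 44 were matched by RefSeq accession. Many collagen exons are 54 bases long and hold 6 repeats of 9 bases, each of which begins with a glycine codon, GGN. The earliest such exon, in transcript order, is shown for the 6 genes on which the results turn, with the glycine codons in capitals. These exons lie at chr10:76719623-76719676 (minus strand, exon 9 of 35), chr1:45325360-45325413 (plus, exon 6 of 51), chr6:4515481-4515534 (plus, exon 8 of 52), chr8:11245211-11245264 (minus, exon 7 of 52), chr8:11413979-11414032 (plus, exon 17 of 48) and chr9:106057381-106057434 (minus, exon 13 of 38).
Col6a1: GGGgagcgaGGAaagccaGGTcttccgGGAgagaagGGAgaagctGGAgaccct
Col3a1: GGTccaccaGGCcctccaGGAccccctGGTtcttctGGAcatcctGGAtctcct
Col1a2: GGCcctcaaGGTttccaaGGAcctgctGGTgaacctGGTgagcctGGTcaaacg
Col4a1: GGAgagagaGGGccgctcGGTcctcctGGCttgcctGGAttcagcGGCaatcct
Col4a2: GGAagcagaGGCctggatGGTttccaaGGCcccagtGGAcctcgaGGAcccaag
Col6a4: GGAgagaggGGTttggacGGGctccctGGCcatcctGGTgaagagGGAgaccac

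How long this repeat went on without a break differed between the types. The longest run of 3-codon repeats that begin with GGN was 344 repeats in Col3a1, 339 in Col1a2 and 338 in Col1a1, and 9 of the 11 fibrillar genes and 0 of the others had a run of over 300. Col27a1 and Col24a1, the remaining fibrillar genes, had 217 and 216. In type IV collagen, whose helix is known for its breaks, the longest runs were 40 repeats in Col4a1 and 66 in Col4a2, and in the type VI genes Col6a1 and Col6a2 both were 87. The fibrillar genes had between 21 and 33 exons of 54 bases each, while no type IV gene had more than 3.

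**Figure D1:**
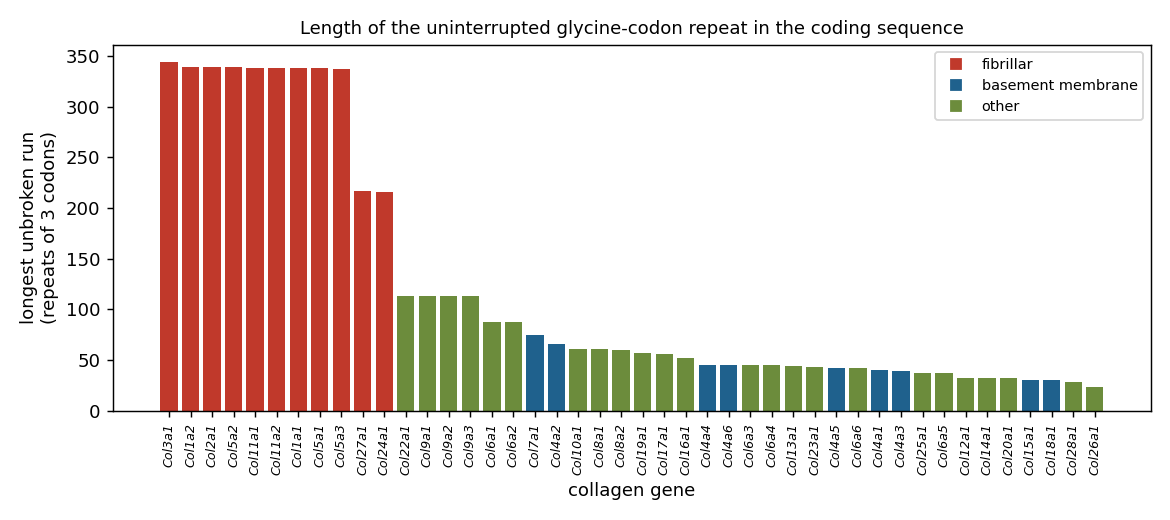
Longest unbroken run of 3-codon repeats beginning with a glycine codon (vertical axis, number of repeats) in the coding sequence of each of the 44 collagen genes, coloured by type. The 11 fibrillar genes stand to the left with 216 repeats or more, and the longest run of any other gene is 113.

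Collagens were a minor part of the RNA. All 44 were listed in both columns, where they made up 0.0136% of the summed coverage in wild type and 0.0137% in TLR4ΔIEC. Their median coverage was 0.603 and 0.629, against 1.76 and 1.93 over all genes, and 13 of them lay above the median of all genes in both columns. Only 8 reached a mean of 5 units, the level used for calls, while 13 lay between 1 and 5 units and 23 below 1 unit. The 8 held 69.9% of the summed collagen coverage in wild type and 68.6% in TLR4ΔIEC.

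**Figure D2:**
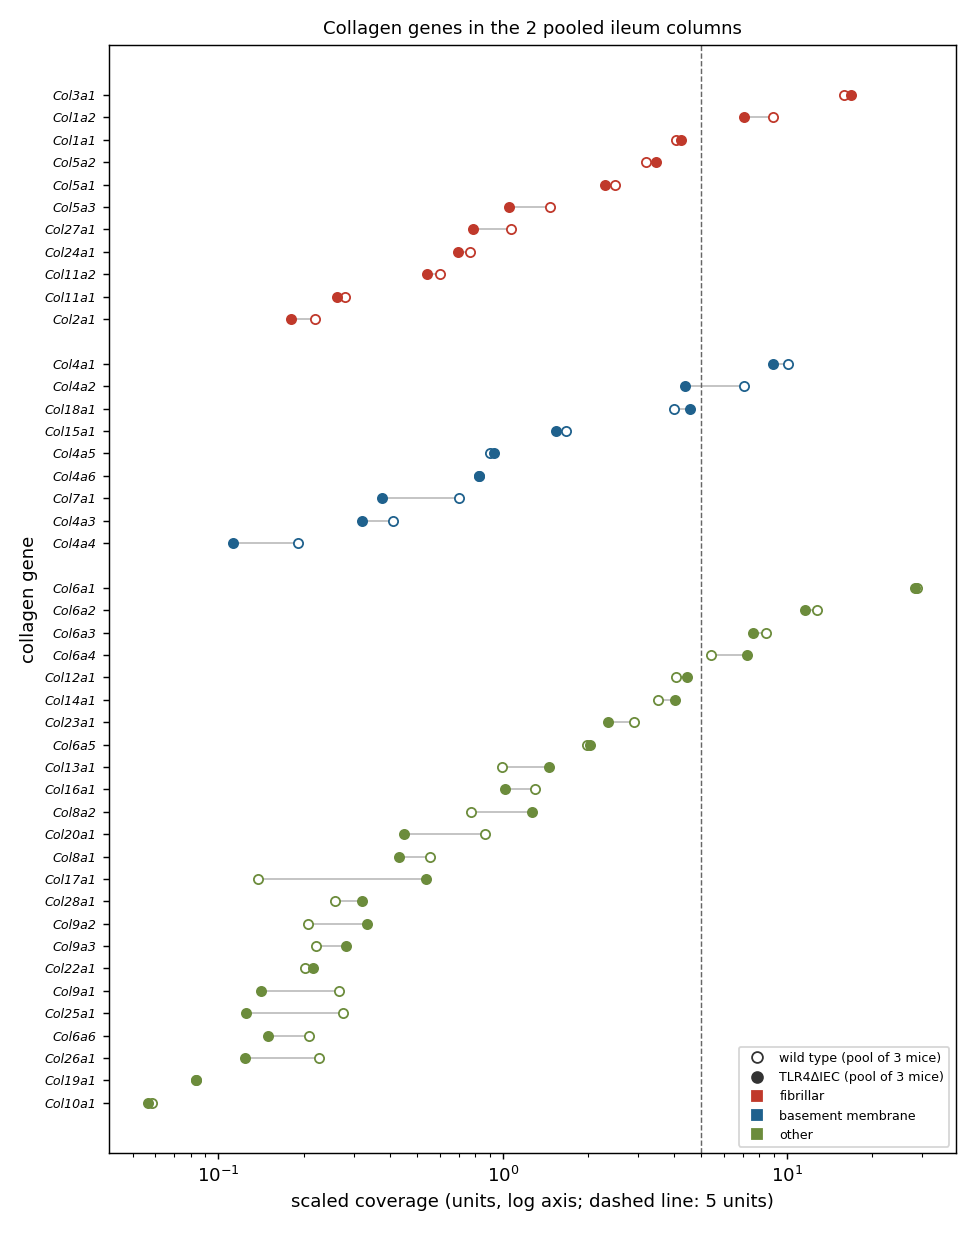
Scaled coverage (horizontal log axis, units) of the 44 collagen genes, 1 row per gene, in the wild type pool (open circles) and the TLR4ΔIEC pool (filled circles), grouped by type. Col6a1 leads with 28.7 and 28.2 units, and the 8 genes with a mean over 5 units belong to types I, III, IV and VI.

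Of the fibrillar collagens, Col3a1, the single chain of type III, was the most abundant, covered 10.8 times per base in wild type mice and 12.1 times in TLR4ΔIEC mice (15.8 and 16.9 units, log2 ratio 0.09). Col1a2, a chain of type I, had a coverage of 6.07 and 5.05 (8.90 and 7.06 units, -0.30). Its partner Col1a1 was below the level for calls, at 2.77 and 3.03 (4.06 and 4.24 units). The 2 columns were thus close for type III, while for type I Col1a2 was lower in the TLR4ΔIEC pool and Col1a1 near level, at a log2 ratio of 0.05. The direction of Col1a1 is not settled. Its scaled ratio without a pseudocount was 1.04 as deposited and 0.974 over the whole annotated transcript, if the length described below holds. Type V collagen, which joins type I fibrils and limits their width, was weakly covered, with Col5a2 at 2.18 and 2.48, Col5a1 at 1.70 and 1.64 and Col5a3 lower still, at 1.47 and 1.05 units. The cartilage collagens Col2a1 (0.150 and 0.129), Col11a1 (0.190 and 0.187) and Col11a2 (0.409 and 0.388) and the minor fibrillar genes Col27a1 (0.730 and 0.563) and Col24a1 (0.524 and 0.498) were all at a coverage under 1. Summed over the 11 genes, fibrillar collagens reached 38.9 units in the wild type pool and 37.4 in the other.

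Among the 8 better covered genes, Col4a2, a chain of type IV collagen, had the lowest ratio. It reached 5 units only in the wild type pool. Col4a2 was covered 4.83 times in wild type mice and 3.15 times in TLR4ΔIEC mice (7.07 and 4.40 units, log2 ratio -0.58), and Col4a1, with which it forms the common type IV molecule, at 6.87 and 6.39 (10.1 and 8.93 units, -0.16). Both chains were lower in the TLR4ΔIEC pool, though neither by 2-fold, and 10.2% of all genes of at least 5 units had a lower ratio than Col4a2. After the dependence of ratios on GC and transcript length was taken out, Col4a2 was at -0.26 and Col4a1 at 0.03. The chains of restricted basement membranes were scarce: Col4a5 was at 0.616 and 0.667, Col4a6 at 0.561 and 0.590, Col4a3 at 0.280 and 0.229 and Col4a4 at 0.129 and 0.0804. Over all 6 type IV genes the sum was 19.5 units against 15.5 in the TLR4ΔIEC pool. Adipocyte markers were also lower there, at 66.2 against 21.4 units in sum, and whether they play a part was not tested. Col18a1 and Col15a1, proteoglycan collagens of the basement membrane zone, were at 2.74 and 3.27 and at 1.14 and 1.11. Col7a1, which anchors the epidermal basement membrane, was at 0.478 and 0.269.

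Type VI genes were the most abundant collagens of this tissue. Col6a1 had the highest coverage of all 44 genes in both columns, 19.6 and 20.2 (28.7 and 28.2 units, log2 ratio -0.02), and more coverage than 87.5% of all genes in wild type and 87.6% in TLR4ΔIEC. Col6a2 was at 8.72 and 8.28 (12.8 and 11.6 units, -0.13) and Col6a3, the long chain of the classical molecule, at 5.74 and 5.44 (8.41 and 7.60 units, -0.13). These 3 chains were nearly level between the pools. After correction for GC and length Col6a1 was at 0.11 and Col6a2 at 0.16, so the direction of these 2 is not settled. Col6a3 stayed slightly below 0 under every alternative that kept it (-0.16 to -0.04). Col6a4, a long chain that can stand in for Col6a3, had the highest ratio of the 8 genes, at 3.68 and 5.17 (5.39 and 7.23 units, 0.36). The other such chains were weaker, Col6a5 at 1.36 and 1.46 and Col6a6 at 0.142 and 0.107. The 6 type VI genes together summed to 57.5 units in wild type mice and 56.8 in TLR4ΔIEC mice, or 41.3% and 42.4% of the collagen coverage.

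The remaining types were weakly covered. Among those that coat fibrils, Col12a1 was at 2.78 and 3.18, Col14a1 at 2.39 and 2.90, Col16a1 at 0.889 and 0.728 and Col20a1 at 0.591 and 0.320, while Col22a1, Col19a1, Col9a1, Col9a2 and Col9a3 lay between 0.0566 and 0.239 in both columns. Of the collagens that span the cell membrane, Col23a1 was at 1.98 and 1.68, Col13a1 at 0.676 and 1.04 and Col25a1 at 0.187 and 0.0897. Col17a1, which sits in the hemidesmosomes that fasten epithelial cells to the basement membrane, was at 0.0940 in wild type and 0.385 in TLR4ΔIEC. That is the widest gap of any member on the scale without a pseudocount (a ratio of 3.91), at levels that exceeded 18.6% of all genes in wild type mice and 33.6% in TLR4ΔIEC mice, and below 1 unit in both. The network collagens Col8a2 and Col8a1 were at 0.530 and 0.904 and at 0.377 and 0.310. Col10a1, the collagen of growth plate cartilage, was the least covered of the family in both columns, at 0.0397 and 0.0404, and Col28a1 and Col26a1 lay between 0.0884 and 0.229.

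As a family, collagens did not stand out between the pools. Past 2-fold there were 0 of the 8 better covered genes upwards and 0 downwards, where 1.29% and 2.79% of all 8891 genes of that level lay. With so few members and such a background, a count of 0 says little. Against the quartiles of all genes (25th percentile -0.26, 75th percentile 0.27), 1 of the 8, Col6a4, lay above the upper and 2, Col1a2 and Col4a2, below the lower. Of the 8, 2 lay above 0 and 6 below, with a median log2 ratio of -0.13 beside a median of 0.03 over all genes, and the median of the 8 was 0.06 once the dependence on GC and length was taken out, so its direction is not settled. Among the 21 members of at least 1 unit, 10 lay above 0 and 11 below, the median was -0.02, and 0 were past 2-fold in either direction, against 1.53% higher and 2.83% lower over 13428 genes. The ratios of these 21 ran from -0.58 to 0.36. By type, the medians of genes of at least 5 units were -0.11 for 2 fibrillar, -0.37 for 2 basement membrane and -0.08 for 4 other genes. The last was 0.14 after the GC and length correction and 0.02 when scaled without the 50 highest genes, and the first was 0.07 for the 1 gene left with the annotated length. In whole tissue, fewer cells of a type and less RNA per cell cannot be told apart, and without replicates the order of neighbouring levels could not be tested.

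**Figure D3:**
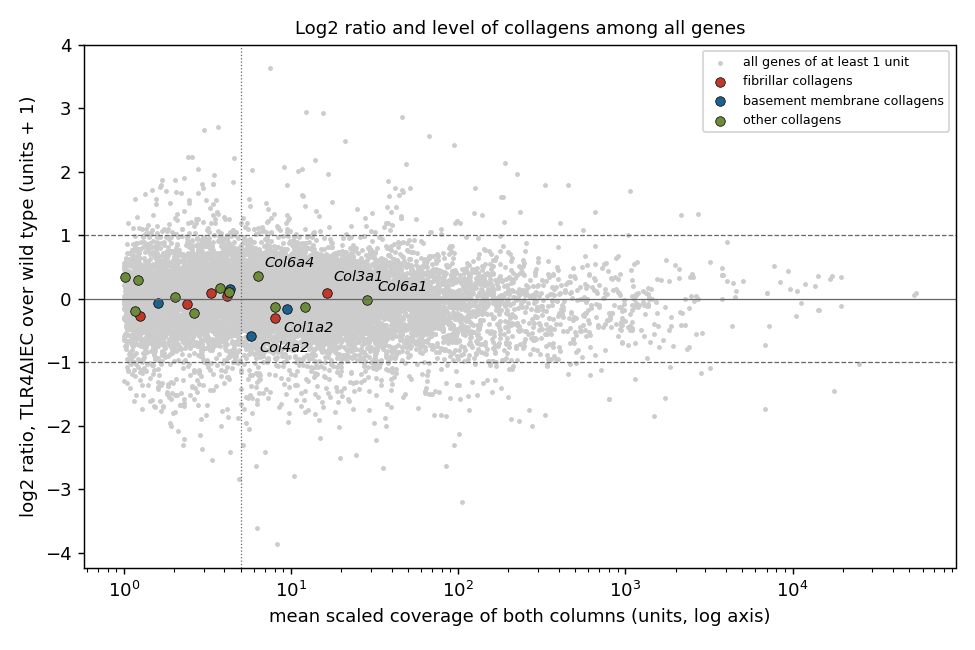
Log2 ratio of TLR4ΔIEC over wild type (vertical axis, units plus 1) against the mean level of both pools (horizontal log axis, units) for all genes of at least 1 unit (grey) and the 21 collagens of that level (coloured by type). Dashed lines mark 2-fold, the dotted line 5 units, and all 21 collagens lie between the dashed lines, from Col4a2 at -0.58 to Col6a4 at 0.36.

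Chains that assemble into 1 molecule can be set side by side within a column, since coverage is per base. Type I collagen is built from 2 Col1a1 chains and 1 Col1a2 chain, yet the coverage of Col1a1 was 0.456 times that of Col1a2 in wild type and 0.600 times in TLR4ΔIEC. In type IV, also built of 2 Col4a1 chains and 1 Col4a2 chain, Col4a1 was at 1.42 times Col4a2 in wild type and 2.03 times in TLR4ΔIEC. For type VI, with 1 chain of each kind, Col6a1 was at 2.24 and 2.44 times Col6a2, and Col6a3 at 0.293 and 0.269 times Col6a1. In type V, Col5a1 was at 0.780 and 0.661 times Col5a2. The order of the chains in each pair was the same in both pools, and in type I it ran against the make-up of the protein.

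The length behind the averages bears on such ratios. The averages can be written as a whole number of bases over a whole number of positions, though how they were made is not known. For 9 members the smallest such number of positions lay within the annotated transcript in both columns while no multiple of it did, and was taken as the length. For some members it exceeded the annotated transcript, as for Col6a3 (10805 and 10679 of 10106 bases) and, in wild type, Col25a1 (10523 of 6701 bases), so the rule behind those averages is not known. It was 3976 bases in both columns for Col6a1, 97.0% of the transcript, and 5513 and 5465 bases for Col3a1, 99.1% and 98.2%. For Col1a1 it was only 3789 and 3537 of 5930 bases, 63.9% and 59.6%. Since the number exceeded the annotated transcript for some members, a multiple of it is not excluded for Col1a1. If these are the lengths, part of the annotated transcript is left out. Over the whole transcript Col1a1 would then be at 1.77 in wild type and 1.81 in TLR4ΔIEC, below the deposited 2.77 and 3.03. For Col4a2 the number was 6216 in wild type and 3195 in TLR4ΔIEC, of 6450 bases, and whether the latter stands for 3195 positions or a multiple of it is not known. The same length could lie behind both averages for 2 of the 8 better covered collagens, Col6a1 and Col6a2, against 70.8% of all genes of that level. Collagen transcripts also have more exons, a median of 48 against 8. Whether the exon number plays a part was not tested.

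Several collagen genes are neighbours. Col4a1 (chromosome 8, 11198423 to 11312826) and Col4a2 (11312805 to 11449287) lie head to head and overlap by 22 bases at their starts, and their log2 ratios were -0.16 and -0.58. Col4a4 and Col4a3 on chromosome 1 are 71 bases apart at their starts, with ratios of -0.10 and -0.10, and Col4a6 and Col4a5 on chromosome X are 1308 bases apart, with ratios of 0.00 and 0.02. Col3a1 (chromosome 1, 45311538 to 45349706) and Col5a2 (45374321 to 45503282) lie tail to tail, 24614 bases apart, with ratios of 0.09 and 0.09. Col6a2 and Col6a1 follow each other on the minus strand of chromosome 10, 85161 bases apart, with ratios of -0.13 and -0.02. Col6a4 (chromosome 9, 105989454 to 106096783) shares 127 and 162 exon bases with unnamed models on the opposite strand, and whether the authors' averages used strand is not given in the sources used here, so its value is uncertain. For the same reason Col4a2, which shares 43 exon bases with Gm15419, and Col4a3, which shares 563 with C430014B12Rik, are uncertain, and Col3a1 shares 141 exon bases with Gm47302 on its own strand, which counting by strand would not separate.

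The genes that make, cut, bind and remove collagen were followed in 7 lists. Enzymes and chaperones that act on the chains inside the cell had 6 of 18 members at 5 units or more. All 6 lay above 0, with a median of 0.29, as did 4680 of all 8891 genes of that level. Of those between 1 and 5 units, Leprel4, Leprel2, Fkbp10, Leprel1, Plod2 and Plod3 lay below 0 (-0.58 to -0.08). Plod1, P4ha1 and Lepre1 lay above it (0.06 to 0.75). Over the 15 members of at least 1 unit the median was 0.14. P4hb, a subunit of prolyl 4-hydroxylase, was at 434 and 556 units (0.36), the prolyl isomerase Ppib at 180.4 and 209.9 units (0.22) and Mia3, which loads procollagen for export, at 20.1 and 22.4 units (0.15). Serpinh1, the collagen chaperone HSP47, was at 12.8 and 17.1 units (0.40). Crtap, of the prolyl 3-hydroxylation complex, was the only member past 2-fold, at 3.75 and 8.64 units (1.02), and was at 0.64 with a pseudocount of 5. It reached 5 units only in the TLR4ΔIEC pool, and 1.29% of all genes of that level were at least 2-fold higher there. P4hb and Ppib also serve secreted proteins other than collagen.

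Few genes of procollagen processing and cross-linking were well covered, 2 of 13. Bmp1, the proteinase that removes the C-terminal propeptide of fibrillar procollagens, was at 10.5 and 3.10 units (log2 ratio -1.49, or -0.94 with a pseudocount of 5), while Pcolce, the enhancer of that cleavage, was at 4.49 and 7.53 units (0.63). The enzyme and its enhancer thus lay on opposite sides of 0. Each reached 5 units only in the pool where it was higher, so the contrast rests on genes near the level for calls. Bmp1 was past 2-fold downwards, where 2.79% of all 8891 genes of that level lay. The lysyl oxidases Lox and Loxl1 to Loxl4, which cross-link collagen, all had a mean under 5 units. Of genes of collagen breakdown, 7 of 18 were kept, 6 above 0 and 1 below, with a median of 0.36 and 0 past 2-fold. Mmp7, which Paneth cells make and which is better known here for activating defensins, was at 351 and 436 units (0.31). The gelatinase Mmp2 (0.36), its activator Mmp14 (0.23) and the inhibitors Timp2 (0.38) and Timp3 (0.74) were above 0, and the membrane-bound Mmp15 was at 15.8 and 7.72 units (-0.94).

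Collagen receptors and partners were split. Of 9 receptors 4 were kept, the integrin chains Itgb1 (42.6 and 70.6 units, log2 ratio 0.71), Itga2 (0.58) and Itga1 (0.39) above 0 and the receptor kinase Ddr1, found on epithelium, below (28.6 and 17.3 units, -0.69, or -0.39 after correction for GC and length). Of the proteoglycans and matricellular proteins 13 of 17 were kept, 9 above 0 and 4 below, with a median of 0.15 and 0 past 2-fold. Decorin (Dcn), which binds fibrils of type I, was the most abundant at 72.0 and 113 units (0.65), followed by Dpt (45.8 and 43.7 units, -0.07), Sparc (20.3 and 25.9 units, 0.34) and biglycan (Bgn, 21.8 and 22.9 units, 0.07). Of the partners of type IV collagen in the basement membrane 6 of 16 were kept, 3 on each side of 0, with a median of -0.29. That median was 0.24 over the 2 of them for which a length was taken, when that length was replaced by the annotated one. The 2 members past 2-fold, Lamb3 and Lama3, were both lower and both chains of the same epithelial laminin. Lamb3 was at 39.3 and 15.7 units (-1.27). Lama3 was at 9.35 and 2.93 units (-1.40, or -0.85 with a pseudocount of 5) and reached 5 units only in the wild type pool. Past 2-fold downwards lay 2.79% of all 8891 genes of that level. Lamb1 and Lamc1, of laminins found in many tissues, were at 0.09 and 0.43. Of genes of TGF-beta, a growth factor known to induce collagen genes, 10 of 17 were kept, 8 above 0, with a median of 0.16 and 0 past 2-fold. Tgfb1 was at 5.03 and 5.66 units (0.14), the receptor Tgfbr2 at 21.1 and 28.4 units (0.42) and Smad4 at 29.2 and 35.1 units (0.26). The target Tgfbi was at 156 and 167 units (0.09). Ctgf, another target, was at 4.64 and 7.75 units (0.63) and reached 5 units only in the TLR4ΔIEC pool. The inhibitor Smad7 was at 14.7 and 8.60 units (-0.71).

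**Figure D4:**
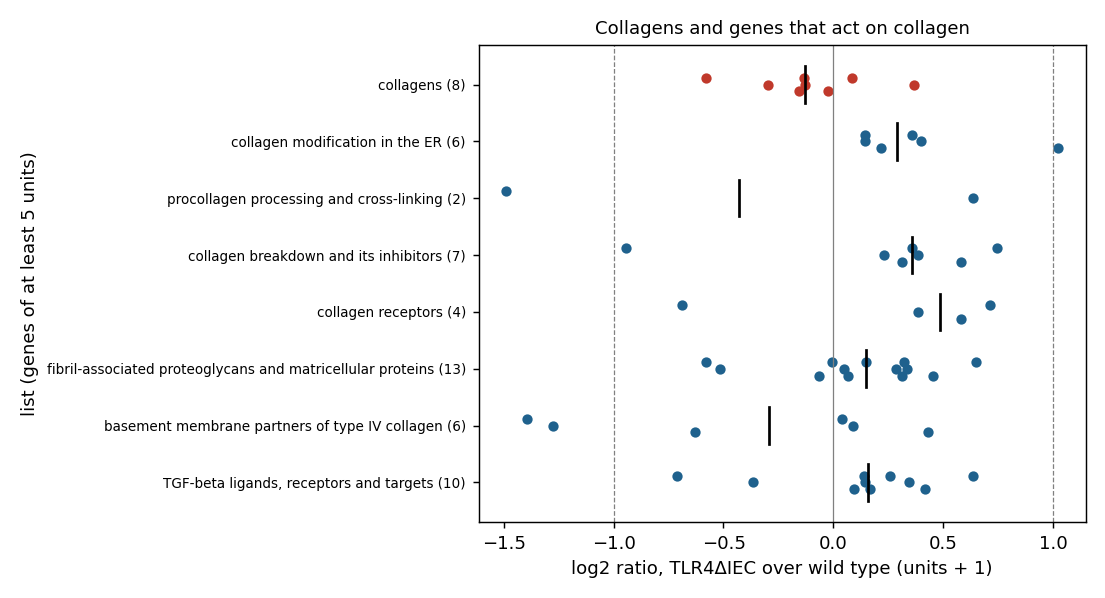
Log2 ratios (horizontal axis, units plus 1) of the 8 collagens (red) and the members of 7 lists of genes that act on or with collagen (blue), for genes of at least 5 units, with the number of genes in brackets and the median as a black bar. Dashed lines mark 2-fold. Bmp1 at -1.49, Lama3 at -1.40 and Lamb3 at -1.27 are the lowest points, and Crtap at 1.02 is the highest.

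The cells that make collagen can be followed by their markers. Fibroblast markers, 9 in all, summed to 211 units in wild type mice and 284 in TLR4ΔIEC mice, with 6 of 8 kept genes above 0 and a median of 0.39. Of these sums Dcn made 72.0 and 113 units and Vim 51.7 and 76.2. Dcn, Dpt and Lum are also in the list of proteoglycans and matricellular proteins, so those lists share genes. The 9 smooth muscle markers summed to 910 and 1065 units, with 8 of 9 above 0 and a median of 0.11. Summed over all 44 genes, collagens were at 139 and 134 units. The fibroblast markers that are receptors lay on both sides of 0, Pdgfra at 10.4 and 12.6 units and Pdgfrb at 6.45 and 4.45. Endothelial markers summed to 31.9 and 35.3 units, but the 2 kept members lay on opposite sides of 0, Pecam1 at 0.46 and Cldn5 at -0.71. Mesothelium markers summed to 11.5 and 13.2 units, while the 1 kept member, Upk1b, was at -0.51. Enteric glia markers summed to 4.87 and 2.79 units, with 0 members kept. Adipocyte markers were lower in the TLR4ΔIEC pool, 66.2 against 21.4 units. All 4 kept members were at least 2-fold lower, as were 2.79% of all 8891 genes of that level. Of the 4, Cfd (13.4 and 3.44 units) and Adipoq (9.63 and 3.42 units) reached 5 units only in the wild type pool. The members not kept were not past 2-fold, with Plin1 at -0.46, Retn at -0.24 and Lep at -0.20. Macrophage markers summed to 904 and 1679 units, of which Lyz2 alone made 691 and 1390 (log2 ratio 1.01), and of 5 kept members 4 lay above 0 while C1qa was at 65.8 and 62.2 units (-0.08). Epithelial markers were near level in sum, at 6181 and 5957 units, of which Krt8 alone made 2528 and 2285. Their members were split, 4 above 0 and 4 below, with Krt19 at 0.43, Cdh1 at 0.33 and Epcam at -0.40. The part of these cell types in the collagen values was not tested.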

How the data were processed

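Ileum RNA of 3 wild type and 3 TLR4ΔIEC mice was analysed as 2 pooled columns. Per the file headers, the authors deposited the average coverage of each RefSeq transcript. The headers do not say whether it was scaled for library size. The submitters' processing notes name TopHat2 2.0.10, Bowtie2 2.1.0 and mm10 without saying what each did. How the averages were made, the read length and any use of strand: not given in the sources used here. Entries listed in both columns (22001) were reduced to 21950 symbols by keeping the entry with the highest mean. Entries in only 1 column (723 wild type, 686 TLR4ΔIEC) were left out. Columns were scaled by the median of ratios (factor 1.05) so that totals averaged 1000000 units, and ratios were logged with a pseudocount of 1 and a minimum mean of 5 units. The smallest denominator that makes an average a whole number of bases was computed, and was taken as its length only where it lay within the annotated transcript and no multiple of it did. Since the read length is unknown, no counting intervals are given.

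All collagens were named, with both coverages or, for some of the least covered, a range of coverage. Of each pathway list, up to 4 members of at least 20 units with the largest absolute ratio and any past 2-fold were named. Fabp6, Lyz2, Serpinh1, Pcolce, the matrix proteinases and inhibitors other than Mmp7, Itga1, Itga2, Lamb1, Lamc1, Tgfb1, Ctgf, Smad7, Pdgfra, Pdgfrb, C1qa, Pecam1, Cldn5 and Upk1b were chosen after their values were seen. The members and lists were chosen with earlier results of these data known. No value per mouse was used, so no replicate could be left out. Alternatives were 4 scalings, 2 pseudocounts, 3 filters, the mean over entries, genes of equal length behind both averages, correction for GC and length and, chosen after seeing the data, coverage over the annotated length. The steps were tested on simulated data. Python 3.11.15, numpy 2.4.6, pandas 2.3.3, statsmodels 0.14.6 and matplotlib 3.10.9 were used.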

Additional observations from a re-analysis of the deposited data

How the results depend on the processing

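Under all 13 alternatives, 0 collagens were past 2-fold in either direction. That says little, since some alternatives held only 1 or 2 collagens. With no filter, the pseudocount held members under 1 unit near 0, as for Col17a1, at a ratio of 3.91 without it and a log2 ratio of 0.43 with it. The ratio of Col4a2 stayed below 0 (-0.67 to -0.26) and that of Col6a4 above (0.24 to 0.46) wherever they were kept. The median over all collagens ran from -0.15 to 0.06, and was above 0 after correction for GC and length (0.06) and with coverage over the annotated length (0.03, 2 genes). Col6a1 was above 0 under 5 of 13 alternatives (highest 0.11) and Col6a2 under 1 (0.16), so its direction, like that of the family, depends on the processing. Scaling moved the median of all genes to at most 0.12. The median of basement membrane collagens was -0.11 with a filter at 1 unit, -0.10 with none and -0.11 after that correction. For procollagen processing the median log2 ratio was -0.066 with a filter at 1 unit and 0.085 with none, -0.17 after it and 0.48 with the annotated length, where only Pcolce was left. For partners of type IV collagen it was -0.040 and -0.018 with those filters, -1.27 with a filter at 20 units, where only Lamb3 was left, and 0.24 with the annotated length. For collagen receptors it was 0.012 with a filter at 20 units and 0.17 with no filter. Fewer or more genes enter under these filters. With quantile normalization Crtap was at 0.97, and with a pseudocount of 5 Crtap was at 0.64, Bmp1 at -0.94 and Lama3 at -0.85, all under 2-fold. A filter at 20 units left only Col6a1, and equal lengths behind both averages left Col6a1 and Col6a2. Shifts of under 0.25 on the log2 scale were counted as unchanged. No paired analysis was possible because each genotype has 1 pooled column. Low coverage limits what can be read from the 36 collagens under 5 units.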
